A study of Mus musculus with 58 samples.

Results

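Polycomb repressive complex 2 (PRC2) is the enzyme complex that methylates lysine 27 of histone H3, a mark found at silent developmental genes and on the inactive X chromosome. Transcripts of 8 of its subunit genes, chosen by name, were followed here in chromatin-associated RNA: Ezh1, Ezh2, Eed, Suz12, Jarid2, Mtf2, Phf19 and Aebp2. They are 8 of the 22556 genes in the count tables, and all 8 passed the filter on low counts, which left 16227 genes for testing. EZH2 and its homologue EZH1 carry the catalytic SET domain, EED binds the methylated histone tail and SUZ12 holds the complex together. MTF2 and PHF19 are Polycomb-like proteins that join PRC2 in the form called PRC2.1, and JARID2 and AEBP2 join it in the form called PRC2.2. In the pathway set off by Xist RNA, the PRC1 complexes that contain PCGF3 or PCGF5 ubiquitinate histone H2A, and PRC2 binds that mark through JARID2 and AEBP2.

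The 58 libraries came from female mouse embryonic stem (ES) cells that are 129 by castaneus F1 hybrids, and from cultures in which these cells were differentiated towards neural precursors (NPC). All lines carried Xist under a doxycycline-inducible promoter on the chromosome of the domesticus strain 129 (Dom), so that fragments could be told apart from those of the castaneus allele (Cast). There were 6 lines. WT is the parental line, and SPOC derives from it by mutation of the SPOC domain of the silencing factor SPEN. PCGF35 carries the FKBP12 degron on PCGF3 and PCGF5, which lets dTAG-13 degrade both proteins, and PCGF35_SPOC combines this degron and the SPOC mutation. In DelPID the Xist RNA is without its PID region, through which Polycomb is recruited, and DelPID_SPOC combines that deletion and the SPOC mutation. ES cells were taken before Xist induction (day 0, 13 libraries) and after 1 day of doxycycline at 1 ug/mL (day 1, 13 libraries), and NPC cultures after 3 days (16 libraries) and 6 days (16 libraries), in differentiation medium with doxycycline. Cultures of PCGF35 and PCGF35_SPOC were either untreated or given dTAG-13, which the labels give as 100 uM, from 12 hours before doxycycline on. Groups held 2 libraries each, except SPOC ES cells with 3. WT and DelPID were represented by NPC cultures alone. Replicates of WT, PCGF35 and DelPID carried only a replicate number. Those of PCGF35_SPOC were clones F10 and F6, those of DelPID_SPOC clones A8 and G3, and those of SPOC clones C11, D9 and H1 in ES cells but D9 and H1 in NPC. P-values therefore measure the spread between cultures, and in the SPOC-mutant lines also between clones. The study describes its second DelPID_SPOC clone, printed there as clone G, as tetraploid. By its letter this is G3, so A8 and G3 may also differ in ploidy.

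Depth ran from 2.29 M to 30 M fragments (M, mega), with a median of 15.9 M, and the lowest depths, 2.29 M and 6.37 M, were those of DelPID replicate 1 on NPC day 6 and day 3. The libraries labelled clone D9 did not share an allelic make-up: their Dom shares differed between ES cells and NPC by more than 3 percentage points on 5 of 18 autosomes, by up to 7.1 points, compared with at most 2.2 points for clone H1, while the NPC libraries labelled D9 and H1 differed by at most 1.8 points. Chromosome 16 was left out of these counts; its Dom share differed between ES cells and NPC by 12.8 points in H1 and 4.4 points in D9. For several calls that rest on SPOC libraries, values without D9 are therefore also given. Markers moved with the culture: pluripotency markers summed to between 1272 and 2195 CPM (counts of a gene scaled to 1 M counts of a library) in ES cells on day 0 and to between 359 and 1319 CPM on NPC day 6, and 6 of 7 were called lower. Neural progenitor markers summed to between 24.4 and 104 CPM on day 0 and between 25.9 and 394 CPM on NPC day 6, with 1 of the 6 genes at 0 in every library. Pax6 differed by 0.47 (log2) on average without being called, but the lines differed. Group means of Pax6 went from 1.47 to 0.897 CPM in untreated PCGF35 and from 1.3 to 5.61 CPM in SPOC. Those of Nes went from 19.1 to 196 CPM in untreated PCGF35 and from 16.3 to 15.2 CPM in SPOC. The NPC label thus stands for cultures in which pluripotency transcripts were still present. Because these are bulk libraries, fewer cells of a type and less RNA per cell cannot be told apart.

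All 8 genes were transcribed in every library, but at very different levels. Per kilobase of gene span, which suits chromatin RNA because introns were counted, Suz12 (median 16.5 CPM per kb), Mtf2 (15.7) and Jarid2 (12.1) were the highest. Eed (5.49 CPM per kb), Ezh2 (3.92) and Aebp2 (2.97) were intermediate, and Ezh1 (1.41) and Phf19 (0.768) the lowest. The order within the leading trio is not separated by the libraries, as Suz12 spanned 9.02 to 25.4 CPM per kb and Mtf2 8.19 to 22.2. Ezh2, the main catalytic subunit of dividing cells, was thus above its homologue Ezh1 at the median, with ranges of 2.83 to 5.26 and 0.859 to 3.67 CPM per kb that overlapped. Between libraries, the steadiest transcripts in CPM were Aebp2, with a 1.7-fold range from 123 to 209 CPM, Eed with 1.84-fold (110 to 202 CPM) and Ezh2 with 1.86-fold (183 to 340 CPM). Mtf2 (357 to 968 CPM) and Suz12 (370 to 1041 CPM) varied 2.71-fold and 2.81-fold, Ezh1 4.28-fold (30.4 to 130 CPM) and Phf19 4.59-fold (5.53 to 25.4 CPM). Jarid2 varied 23.9-fold, from 1061 to 25341 CPM, which is described separately further on. Counts behind these levels ranged from 28 fragments for Phf19 in its lowest library to 73899 for Jarid2 in its highest.

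**Figure D1:**
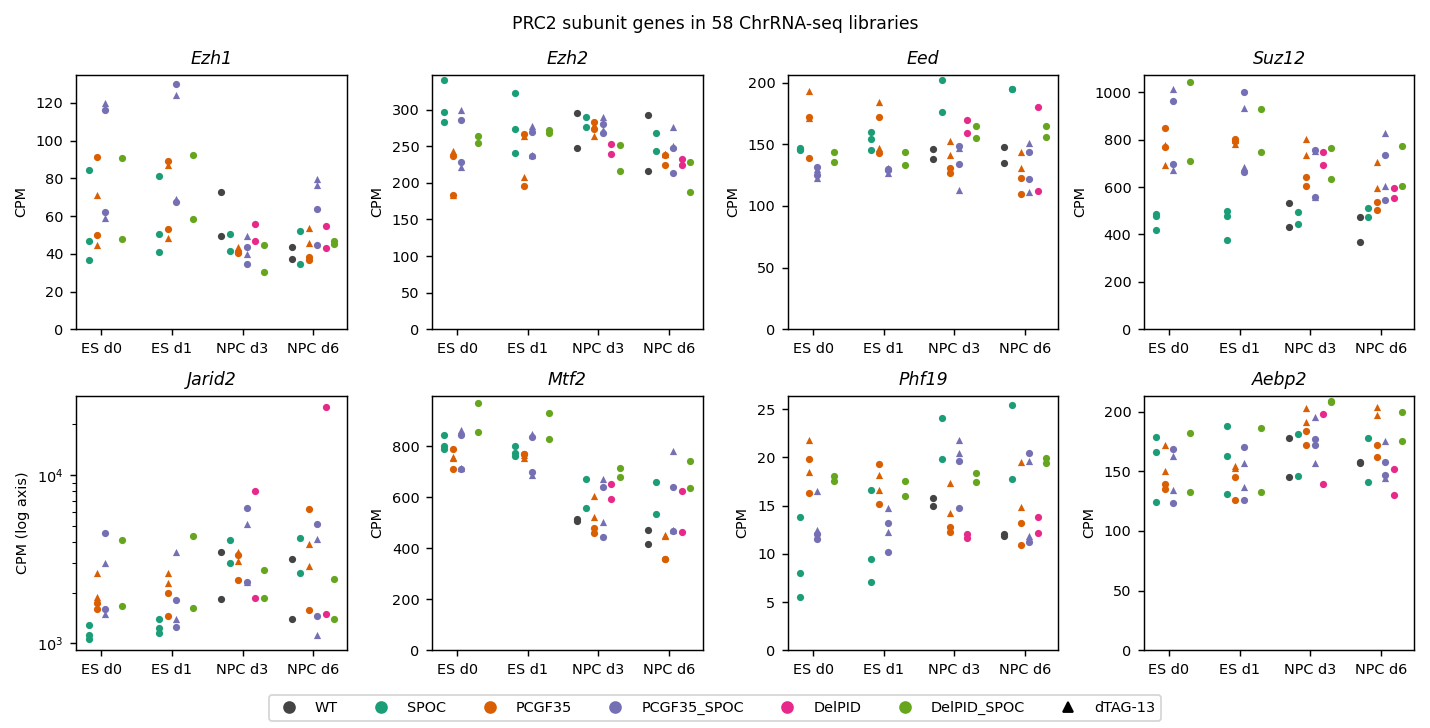
Level of each PRC2 subunit gene in CPM (y axis, logarithmic for Jarid2) in ES cells on day 0 and day 1 and in NPC cultures on day 3 and day 6 (x axis); each point is 1 library, coloured by line, and triangles mark dTAG-13. Mtf2 lies between 709 and 968 CPM on ES day 0 and between 357 and 781 CPM on NPC day 6, whereas Eed stays between 110 and 202 CPM throughout.

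In mm10 the genes lie on chromosomes 11 (Ezh1 at 101191114 to 101226450 and Suz12 at 79993105 to 80034123), 6 (Ezh2 at 47530273 to 47595030 and Aebp2 at 140622662 to 140677418), 7 (Eed at 89954653 to 89980976), 13 (Jarid2 at 44730773 to 44921643), 5 (Mtf2 at 108065673 to 108109219) and 2 (Phf19 at 34893754 to 34913976), and none overlaps another gene of the tables. PRC2 core genes are known as E2F targets in dividing cells, so the 250 bases upstream of each start were searched on both strands for the E2F letters TTTCCCGC, TTTCGCGC, TTTGCCGC and TTTGGCGC. These letters occurred upstream of Suz12 and Phf19 and in none of the windows of the other members, against 1.86% of 32851 mouse promoters of the same length (RefSeq, GRCm38.p6). The windows of Suz12, the most transcribed core subunit, and Phf19, the least transcribed member, are shown with the E2F letters in capitals, beside that of Mtf2, the member with the smallest adjusted p in differentiation, which holds none of them.
Suz12, chr11:79992856-79993105, plus strand: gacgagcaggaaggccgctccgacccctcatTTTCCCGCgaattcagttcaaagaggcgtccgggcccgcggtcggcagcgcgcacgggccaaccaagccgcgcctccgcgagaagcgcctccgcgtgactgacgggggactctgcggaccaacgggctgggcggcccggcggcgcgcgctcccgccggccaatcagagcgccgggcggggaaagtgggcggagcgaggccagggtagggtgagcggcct
Phf19, chr2:34913977-34914226, minus strand: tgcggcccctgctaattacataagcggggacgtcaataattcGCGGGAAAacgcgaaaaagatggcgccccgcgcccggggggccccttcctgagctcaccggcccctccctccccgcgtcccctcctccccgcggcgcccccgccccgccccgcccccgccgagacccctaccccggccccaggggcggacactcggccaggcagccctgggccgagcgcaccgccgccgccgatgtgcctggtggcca
Mtf2, chr5:108065424-108065673, plus strand: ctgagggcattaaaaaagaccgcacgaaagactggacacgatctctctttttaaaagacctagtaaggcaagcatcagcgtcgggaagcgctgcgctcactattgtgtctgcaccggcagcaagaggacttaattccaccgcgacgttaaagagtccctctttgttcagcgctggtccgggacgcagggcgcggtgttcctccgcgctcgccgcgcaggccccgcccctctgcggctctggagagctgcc
The match began 219 bases before the start of Suz12, and 208 bases before that of Phf19, where it lies on the opposite strand. The Suz12 window held 37 CpG dinucleotides, that of Phf19 31 and that of Mtf2 23, all above the median of 6 over all promoters. The E2F letters themselves contain a CpG, and the promoters behind the 1.86% were not matched for CpG content. RefSeq gives Mtf2 a further start downstream, whose window (chr5:108077915-108078164) held 2 CpG dinucleotides, below that median, and none of the E2F letters. A match is a description of the letters, and the data here do not measure factor binding.

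The question put by the degron lines was how transcription responds when PCGF3 and PCGF5, which act upstream of PRC2 on the X, are removed. None of the 8 PRC2 genes was called in either line, and neither was any other gene: 0% of the 16227 genes passed an adjusted p of 0.05 in PCGF35 or in PCGF35_SPOC as a mean of the 4 times, or in any of the 8 comparisons at a single time (edgeR's quasi-likelihood test, Benjamini-Hochberg adjustment over all genes). At an unadjusted p under 0.05 there were 2 of the 8 members in PCGF35 and 0 in PCGF35_SPOC as means of the 4 times, beside 4.89% and 1.9% of all genes, and DESeq2 also called 0. The compound acts on the proteins, so RNA does not check the degradation, and the log2 difference of Pcgf3 and Pcgf5 transcripts with dTAG-13 in PCGF35 was -0.03 (95% interval -0.15 to 0.09) and 0.01 (-0.35 to 0.37).

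Eed, the subunit that reads the methylated tail, had the smallest unadjusted p of the members in PCGF35, 0.0155. In untreated PCGF35 its replicates 1 and 2 had 172 and 139 CPM on ES day 0, 172 and 143 on ES day 1, 131 and 127 on NPC day 3, and 123 and 110 on NPC day 6. With dTAG-13 the same replicates had 193 and 171, 184 and 147, 141 and 153, and 144 and 131 CPM. Each of the 8 treated cultures was above the untreated culture of the same number and time, although the groups overlapped in ES cells on both days. The mean log2 difference was 0.20 (SE 0.08, 95% interval 0.04 to 0.36, 158 against 140 CPM), with an adjusted p of 0.993 by edgeR. Aebp2, a PRC2.2 subunit, behaved alike: untreated replicates had 135 and 139 CPM on ES day 0, 126 and 145 on ES day 1, 172 and 184 on NPC day 3, and 162 and 172 on NPC day 6. Treated replicates had 150 and 172, 154 and 153, 203 and 191, and 197 and 204 CPM. All 8 treated cultures were again above their untreated partners, and the groups did not overlap at any of the 4 times. The pairs of Eed and Aebp2 restate the values behind their unadjusted p-values. The share of all genes with such pairs is not given here. The mean log2 difference of Aebp2 was 0.23 (SE 0.11, 95% interval 0.01 to 0.44, edgeR adjusted p = 0.993).

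The other members of PCGF35 leaned the same way without being called. Log2 differences were 0.27 for Phf19 (-0.04 to 0.59), 0.25 for Jarid2 (-0.60 to 1.1), 0.17 for Mtf2 (-0.03 to 0.36), 0.14 for Suz12 (-0.09 to 0.37), 0.06 for Ezh1 (-0.36 to 0.47) and 0.04 for Ezh2 (-0.14 to 0.22). All 8 values were positive, with a median of 0.19 beside 0.01 over all genes tested. At single times the median over the members was 0.12 on ES day 0, 0.04 on ES day 1, 0.22 on NPC day 3 and 0.31 on NPC day 6. These intervals limit the response of Ezh2 to less than 0.22 in either direction, while that of Jarid2 was not bounded usefully. Pluripotency markers leaned with the members, with a median of 0.29 and 6 of 7 positive, and the neural progenitor markers against them, with a median of -0.59 and 0 of 4 positive; their part in the result was not tested. With the replicate number as a block, 153 genes were called in PCGF35 but still no member, the nearest being Aebp2 with an edgeR adjusted p of 0.136, Suz12 with 0.15 and Eed with 0.175. The block within each day called 1 member at 1 time, Suz12 on NPC day 6, at 535 and 501 CPM untreated and 706 and 595 CPM with dTAG-13 (log2 0.34, edgeR adjusted p = 0.0373, beside 1.31% of genes called).

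In PCGF35_SPOC the log2 differences with dTAG-13 had a median of 0.04, beside 0.19 in PCGF35, and ran from -0.08 for Jarid2 (-0.93 to 0.77) to 0.19 for Phf19 (-0.12 to 0.51). Eed was at -0.05 (-0.21 to 0.11) and Aebp2 at 0.02 (-0.20 to 0.23), and treated cultures were above their partners in 3 of 8 pairs for Eed and 4 of 8 for Aebp2. The response of Eed differed between the lines by 0.25 (95% interval 0.02 to 0.48), with an unadjusted p of 0.0319 and an adjusted p of 1 by edgeR, and that of Aebp2 by 0.21 with an adjusted p of 1. A difference between the lines was thus not called for any member, with 0% of genes called. Phf19, the PRC2.1 subunit of lowest level, was the only member above its partners in 7 of 8 pairs in both lines. Ezh2 was close, with 6 in PCGF35 and 7 in PCGF35_SPOC. How many of all genes reach such counts is not given here, and the intervals of Phf19 include 0 in both lines. Other genes of the pathway gave no call either, including the histone-binding subunits Rbbp4 (0.01 in PCGF35) and Rbbp7 (0.19), the PRC2.1 subunit genes Phf1 (-0.20) and Epop, listed as E130012A19Rik (0.14), the PRC2.1-associated gene Lcor (0.26), the PRC2 inhibitor Ezhip, listed as AU022751 (0.17), the H3K27 demethylases Kdm6a (0.17) and Kdm6b (-0.14), and 0 of 24 PRC1 genes tested.

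**Figure D2:**
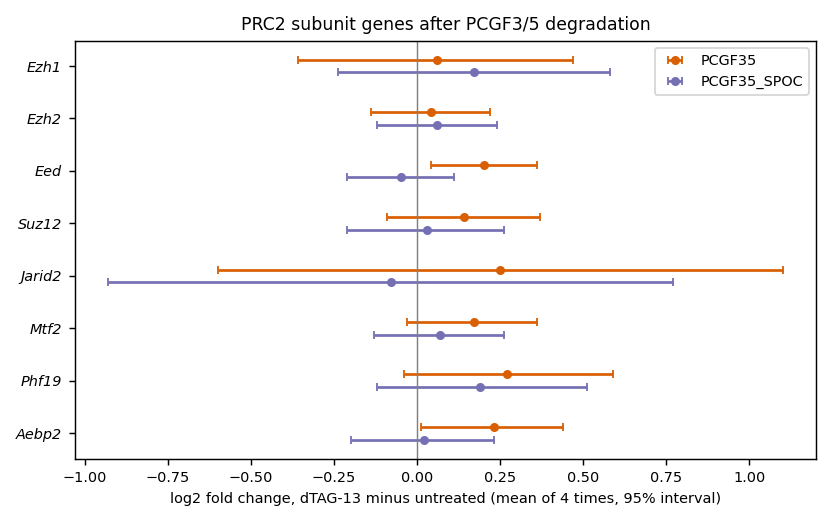
Log2 fold change with dTAG-13 against untreated cultures (x axis, mean of 4 times) for each PRC2 subunit gene (y axis) in PCGF35 and PCGF35_SPOC; bars are 95% intervals from edgeR. All 8 points of PCGF35 lie above 0, from 0.04 for Ezh2 to 0.27 for Phf19, and those of PCGF35_SPOC between -0.08 and 0.19.

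Differentiation was the larger source of change. NPC day 6 was compared with ES day 0 over the 6 arms that had both, an arm being a line under 1 treatment: PCGF35 and PCGF35_SPOC with and without dTAG-13, SPOC and DelPID_SPOC. Of the 8 members, 3 fell and 1 rose, beside 58.9% of all genes called (29.4% in each direction), so the members were called at about the rate of other genes. The members' median log2 change was -0.01, beside 0 over all genes. NPC cultures had also received doxycycline for 3 or 6 days, so that differentiation and doxycycline cannot be told apart. After 1 day of doxycycline in ES cells no member was called (0.0924% of genes), with all 8 log2 differences between -0.10 and 0.10. NPC day 6 against ES day 1 called the same 4 members in the same direction (58.9% of genes).

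Markers of other cells moved with the stage as well. Of 6 mesoderm and endoderm markers, 4 were called higher and 1 lower on NPC day 6, and the list summed to between 10.5 and 31.7 CPM on ES day 0 and between 11.8 and 175 CPM on NPC day 6. Group means of this sum went from 12.6 to 117 CPM in untreated PCGF35 and from 12.2 to 122 CPM with dTAG-13, but from 26.9 to 15.4 CPM in SPOC and from 20.3 to 12.7 CPM in DelPID_SPOC. In PCGF35_SPOC they went from 20.4 to 38.7 CPM untreated and from 19.8 to 30.1 CPM with dTAG-13. The pluripotency sum went from a mean of 1927 to 380 CPM in untreated PCGF35 and from 1980 to 564 CPM with dTAG-13, compared with 1505 to 914 CPM in SPOC and 1852 to 1198 CPM in DelPID_SPOC. Feeder fibroblast markers summed to between 4.21 and 31.4 CPM on ES day 0 and between 1.6 and 144 CPM on NPC day 6. Group means of the neural progenitor sum went from 41.6 to 279 CPM in untreated PCGF35 and from 32.2 to 81.2 CPM with dTAG-13. In SPOC they went from 33.3 to 35.9 CPM and in DelPID_SPOC from 52.2 to 80.6 CPM. In PCGF35_SPOC they went from 67.0 to 198 CPM untreated and from 67.1 to 201 CPM with dTAG-13. The study reports tentative evidence of defective differentiation in SPOC cells. The arms thus differed in these markers, and their part in the results for differentiation was not tested.

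Mtf2, the Polycomb-like subunit that recruits PRC2 to CpG islands, changed most clearly. In untreated PCGF35 it had 712 and 790 CPM on ES day 0 and 360 and 357 CPM on NPC day 6. With dTAG-13 it had 759 and 756, then 451 and 450 CPM. Clones F10 and F6 of PCGF35_SPOC had 709 and 846, then 466 and 641 CPM untreated, and 715 and 864, then 470 and 781 CPM with dTAG-13. In SPOC it went from 789 (C11), 802 (D9) and 843 (H1) to 536 (D9) and 661 (H1) CPM, and in DelPID_SPOC from 856 (A8) and 968 (G3) to 635 and 743 CPM. The NPC libraries were below the ES libraries without overlap in 5 of 6 arms, the exception being PCGF35_SPOC with dTAG-13. The share of all genes with such separation is not given here, and 58.9% of genes were called in the mean of the 6 arms. The mean log2 change was -0.55 (SE 0.08, 95% interval -0.71 to -0.39, 546 against 800 CPM, edgeR adjusted p = 3.65e-07). Without clone D9 it was -0.52. The change was already present on NPC day 3 (-0.40, edgeR adjusted p = 5.46e-05, beside 55.6% of genes called). In the NPC cultures without an ES counterpart, Mtf2 had 508 and 514 CPM on day 3 and 418 and 473 on day 6 in WT, and 594 and 653, then 463 and 623 CPM in DelPID, all below the lowest ES library of the series.

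Suz12, the scaffold subunit, fell by 0.25 (SE 0.09, 617 against 759 CPM, edgeR adjusted p = 0.0218). Without clone D9 the mean change was -0.24. The largest change in a single arm was that of untreated PCGF35, whose cultures went from 849 and 769 to 535 and 501 CPM (log2 -0.62, edgeR adjusted p = 0.0378), which was the only arm without overlap. That call was lost without clone D9 (-0.61, edgeR adjusted p = 0.0516), without C11 and D9 (0.063) and in 4 of 4 fits that left out 1 library of the arm. SPOC cultures had 478, 420 and 487 CPM on ES day 0 and 472 and 512 CPM on NPC day 6. On NPC day 3 the mean change of Suz12 was -0.14 and not called, and with allele-assigned fragments alone the change to day 6 was -0.14 (edgeR adjusted p = 0.186).

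Ezh1, the less active catalytic homologue, fell by 0.46 (SE 0.16, 51.5 against 72.1 CPM, edgeR adjusted p = 0.0156), and by 0.69 on NPC day 3 (edgeR adjusted p = 0.000649). Without clone D9 the change of Ezh1 on NPC day 6 was -0.45. Its ES levels depended on the clone or culture. On ES days 0 and 1, clone F6 had 116 to 130 CPM and F10 58.9 to 68.8, A8 90.6 to 92.6 and G3 48.0 to 58.6, and H1 81.1 to 84.6 against 36.9 to 40.7 for D9 and 46.7 to 50.3 for C11. PCGF35 replicate 1 had 44.6 to 53.1 CPM and replicate 2 70.9 to 91.2. On NPC day 6 all libraries lay between 34.6 and 79.5 CPM, so the gap to ES cells was widest in the cultures that were high at the start. That gap contains the starting level itself, so this describes the values and is not a separate result. Leaving out the ES day 0 library of clone F6 with dTAG-13 removed the call (-0.37, edgeR adjusted p = 0.0553).

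Aebp2 was the 1 member that rose, by 0.21 (SE 0.09, 171 against 151 CPM, edgeR adjusted p = 0.036), and by 0.34 on NPC day 3 (183 CPM, edgeR adjusted p = 0.000937). Its NPC libraries lay above its ES libraries without overlap in the PCGF35 arms, going from 135 and 139 to 162 and 172 CPM untreated and from 150 and 172 to 197 and 204 CPM with dTAG-13. In the other 4 arms the libraries overlapped, among them SPOC with 179, 166 and 124 CPM on ES day 0 and 178 and 141 CPM on NPC day 6. Cast fragments of Aebp2 in SPOC ES cells gave a mean of 57.1 CPM in C11, 50.5 in D9 and 31.3 in H1. The part of this difference in the overlap was not tested. The call on day 6 was lost in 12 of 25 fits that left out 1 library, with values of 0.17 to 0.20, and also with DESeq2 and without clone D9. Without C11 and D9 the value was 0.25. The replicate block kept the call (0.23, edgeR adjusted p = 0.00109), with 10814 of 16227 genes called.

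Ezh2 and Eed, both core subunits, were not called on NPC day 6. Ezh2 had medians of 255, 267, 272 and 238 CPM at the 4 times, with a log2 change of -0.04 from ES day 0 to NPC day 6 (95% interval -0.18 to 0.11). It had risen by 0.19 on NPC day 3 (270 against 251 CPM, edgeR adjusted p = 0.0255) and fell by 0.19 from NPC day 3 to day 6 (239 against 267 CPM over 8 arms, 21.3% of genes called, edgeR adjusted p = 0.0312), the only member called between those days. The last call was lost without clone D9 (-0.17, edgeR adjusted p = 0.0677). Eed had medians of 144, 144, 148 and 144 CPM and a mean log2 change of 0.01 (-0.12 to 0.14). Single arms gave values of either sign for Eed, described next. Phf19 was at 0.22 on day 6 (-0.04 to 0.47, edgeR adjusted p = 0.133) and had risen by 0.32 on day 3 (edgeR adjusted p = 0.0302), a call lost without clone D9 (0.24, edgeR adjusted p = 0.0793). On NPC day 3 altogether, 5 members were called, with Ezh2, Phf19 and Aebp2 higher and Ezh1 and Mtf2 lower, beside 55.6% of genes, and the replicate block added Suz12 (-0.13, edgeR adjusted p = 0.00256) and Jarid2 (0.69, 0.0255), with 64.2% of genes called.

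Calls differed between arms. PCGF35 untreated had 2 members called, both lower (Mtf2 -1.04, edgeR adjusted p = 0.000208, and Suz12), beside 29.5% of genes called and 15.9% called lower. PCGF35 with dTAG-13 had 1 (Mtf2 -0.73, edgeR adjusted p = 0.013), beside 11.4% called and 6.95% called lower. The PCGF35_SPOC arms had none, beside 7.37% untreated and 5.37% with dTAG-13, and DelPID_SPOC had none beside 19.2%. SPOC had 2, both higher (Eed and Phf19), beside 34.1% of genes called and 17.3% called higher. In SPOC, Eed went from 147 (C11), 146 (D9) and 145 (H1) CPM to 195 in both NPC libraries, a log2 change of 0.50 (SE 0.14, edgeR adjusted p = 0.00724). In untreated PCGF35 it went the other way, from 172 and 139 to 123 and 110 CPM (-0.39, edgeR adjusted p = 0.0592), and with dTAG-13 from 193 and 171 to 144 and 131 CPM (-0.39, edgeR adjusted p = 0.11). Phf19 rose in SPOC from 7.98 (C11), 5.53 (D9) and 13.8 (H1) to 25.4 (D9) and 17.8 (H1) CPM (1.34, SE 0.28, edgeR adjusted p = 0.000429). In untreated PCGF35 Phf19 had 19.8 and 16.3, then 13.2 and 10.9 CPM (-0.56, edgeR adjusted p = 0.172). Without clone D9 neither rise in SPOC was called, at 0.50 for Eed (edgeR adjusted p = 0.0864) and 0.81 for Phf19 (0.0966), and with clone H1 alone Phf19 was at 0.48.

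A test of whether the response differed among the 6 arms gave 2.17% of genes and no member, with adjusted p-values by edgeR of 0.0515 for Eed, 0.0585 for Phf19 and 0.293 for Mtf2. Blocking the same test by clone or replicate number called 25.4% of genes and 4 members, at 0.00758 for Eed, 0.000788 for Suz12, 0.0203 for Mtf2 and 0.0194 for Phf19. Without clone D9 it called 0.0121% of genes and gave 0.234 for Eed and 0.35 for Phf19. With allele-assigned fragments alone it called 1.43% of genes and 1 member, Phf19 (edgeR adjusted p = 0.0252), with Eed at 0.107. The interaction of dTAG-13 with differentiation, as a mean of both degron lines, called no member and 0% of genes (0 members and 2.39% of genes at an unadjusted p under 0.05), and so did that of the SPOC mutation in the untreated degron line (6.5% of genes and 3 members at an unadjusted p under 0.05: Mtf2 0.60, Eed 0.48 and Phf19 1.02, each with an edgeR adjusted p of 0.755).

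**Figure D3:**
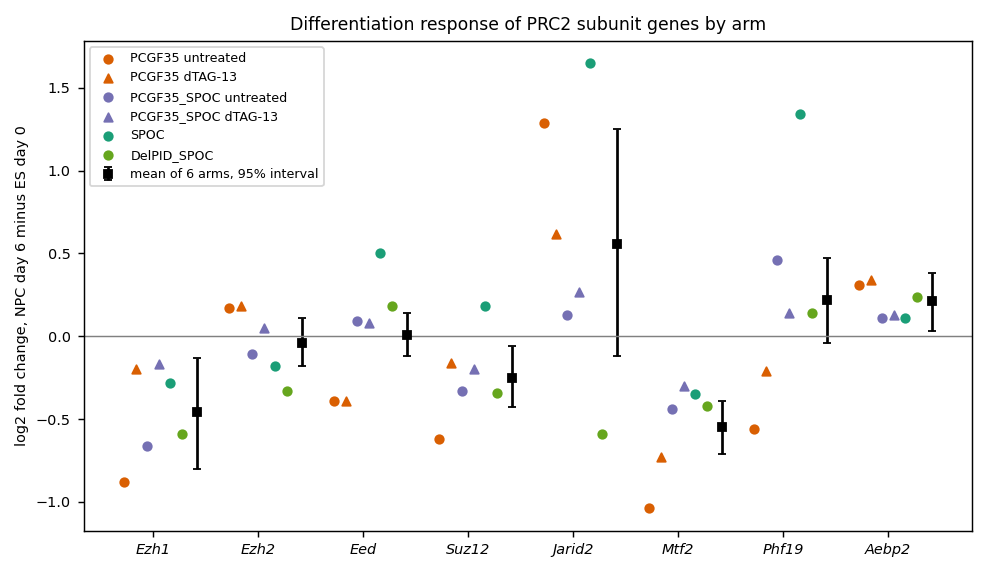
Log2 fold change from ES day 0 to NPC day 6 (y axis) for each PRC2 subunit gene (x axis) in 6 arms (coloured points, triangles for dTAG-13) and as their mean (black squares with 95% intervals). Mtf2 is below 0 in all arms, from -0.30 to -1.04, whereas Eed runs from -0.39 to 0.50 and Phf19 from -0.56 to 1.34.

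The blocked fit, in which libraries of the same clone or replicate number within a line are compared with each other, called more members within arms. The labels do not tie a replicate number to the same number on another day. The blocked fit added Ezh1 (-0.84, edgeR adjusted p = 0.004) and Eed (-0.38, 0.0277) in untreated PCGF35, and Eed (-0.38, 0.0418) in PCGF35 with dTAG-13. Pairing PCGF35 cultures only within a day gave the same calls there. Ezh1 was at -0.83 (edgeR adjusted p = 0.00101) and Eed at -0.38 (0.0218) untreated, with 7284 of 16227 genes called. With dTAG-13 Eed was at -0.39 (edgeR adjusted p = 0.031), with 4456 genes called. In untreated PCGF35_SPOC the blocked fit called Mtf2 (-0.47, edgeR adjusted p = 0.0092), Suz12 (-0.34, 0.00873) and Ezh1 (-0.64, 0.0425), and in DelPID_SPOC Mtf2 (-0.41, 0.013) and Suz12 (-0.34, 0.00532). In SPOC it added Mtf2 (-0.38, edgeR adjusted p = 0.0135), Suz12 (0.23, 0.0349) and Jarid2 (1.60, 0.0344) to Eed and Phf19. The calls in SPOC rest on a weak pairing, as deviations of ES cells and NPC libraries from their group means correlated by at most 0.039 for either clone, and the identity of the libraries labelled D9 is in doubt; a blocked fit without D9 was not made. Mtf2 was called lower in 5 of 6 arms, SPOC included. All genes were also called more often, at 43.1% in untreated PCGF35, 25.4% in PCGF35 with dTAG-13, 21.1% in untreated PCGF35_SPOC, 44.5% in SPOC and 33.2% in DelPID_SPOC. Between NPC days 3 and 6 it added Suz12 (-0.14, edgeR adjusted p = 0.0016) and Mtf2 (-0.16, 0.00679), with 34.6% of genes.

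Jarid2, which tethers PRC2 to ubiquitinated chromatin, had a level that depended on which fragments were counted. A median of 43.7% of its fragments carried allele information, beside 44.2% to 49.6% of all fragments of a library, but the share of Jarid2 ranged from 2.39% to 49.7%. It was low where the level was high: the 20 libraries above 3000 CPM had at most 41.1%, and over the 58 libraries the Spearman correlation between level and share was -0.71, given as a description because the share and the level come from the same counts. The extreme was the shallow library DelPID replicate 1 on NPC day 6, with 25341 CPM and 2.39%, and 606 CPM from fragments assigned to an allele. Its partner had 1491 CPM and 644 allelic CPM. Over all libraries the allelic level spanned 2.88-fold, from 510 to 1471 CPM, against 23.9-fold for all fragments. The high values thus came from fragments without allele information, whose position within the gene the tables do not give.

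**Figure D4:**
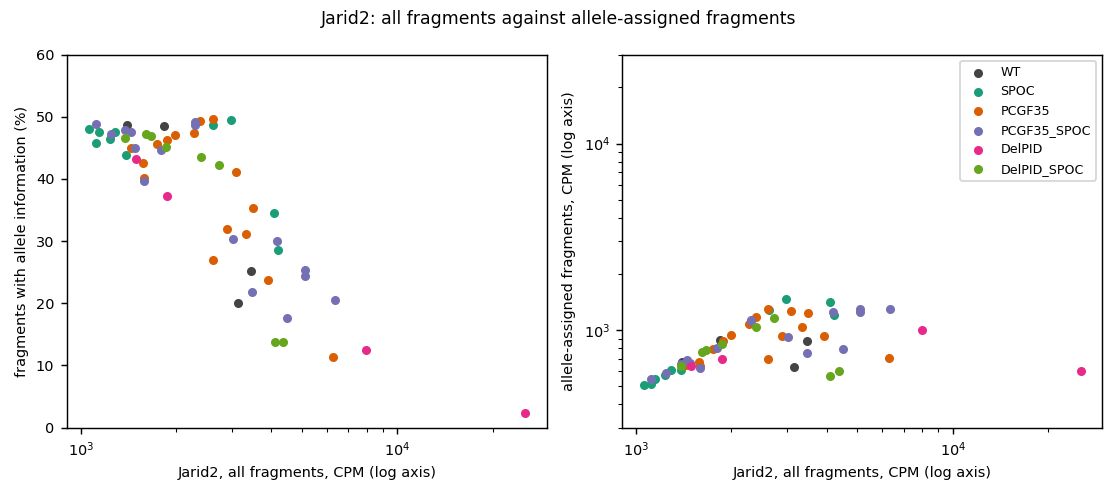
Left, percentage of Jarid2 fragments assigned to an allele (y axis) against the level of all Jarid2 fragments in CPM (x axis, logarithmic); right, level of the allele-assigned fragments in CPM (y axis, logarithmic) against the same x axis; each point is 1 of 58 libraries, coloured by line. The share falls to 2.39% at 25341 CPM while the allelic level stays between 510 and 1471 CPM.

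With all fragments, Jarid2 was not called in differentiation (0.56 on NPC day 6, 95% interval -0.12 to 1.25, edgeR adjusted p = 0.151; 0.71 on NPC day 3, 0.0713). With allele-assigned fragments alone, an alternative chosen after these shares were seen, it rose by 0.75 on NPC day 3 (SE 0.12, edgeR adjusted p = 5.62e-06) and by 0.34 on NPC day 6 (0.0186), and fell by 0.41 between those days (0.00926). The medians of the allelic level followed this course, at 668 CPM on ES day 0, 661 on ES day 1, 1144 on NPC day 3 and 698 on NPC day 6. On day 6 the allelic level was highest in SPOC, at 1274 (D9) and 1201 (H1) CPM against 511, 510 and 612 on ES day 0 (1.24, edgeR adjusted p = 0.000991), and in clone F6 of PCGF35_SPOC, at 1249 CPM untreated and 1254 with dTAG-13. Clone F10 of the same line had 688 and 547 CPM. SPOC was the 1 arm in which the allelic level was called on day 6, and the value without D9 was not computed. The other arms had log2 changes of -0.07 in untreated PCGF35, -0.16 in PCGF35 with dTAG-13, 0.48 in untreated PCGF35_SPOC, 0.21 in PCGF35_SPOC with dTAG-13 and 0.36 in DelPID_SPOC.

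The SPOC mutation was compared with its parent on NPC day 6 over 3 pairs of lines (SPOC and WT, untreated PCGF35_SPOC and PCGF35, DelPID_SPOC and DelPID). Mtf2 was the only member called, beside 1.39% of genes called and 1.14% called higher, and was higher in the mutants by 0.46 (SE 0.11, 95% interval 0.23 to 0.68, 614 against 449 CPM, edgeR adjusted p = 0.0264). Mutant libraries had 536 and 661, 466 and 641, and 635 and 743 CPM, and those of the parents 418 and 473, 360 and 357, and 463 and 623 CPM, so that each pair of lines was without overlap. How many of all genes were separated in this way is not given here. The differences in single lines were 0.49, 0.61 and 0.27, none called (0%, 0% and 0.0308% of genes). Phf19 was at 0.61 (edgeR adjusted p = 0.0825), Eed at 0.25 (0.158), Suz12 at 0.25 (0.357) and Jarid2 at -0.88 (0.382), the last with the extreme DelPID library among the parents. Pluripotency markers moved with Mtf2: their median was 0.70, 7 of 7 were positive and 1 was called. The neural progenitor sum on NPC day 6 had group means of 35.9 CPM in SPOC and 122 CPM in WT. It was 198 and 279 CPM in untreated PCGF35_SPOC and PCGF35, and 80.6 and 100 CPM in DelPID_SPOC and DelPID. Mesoderm and endoderm markers had a median of -1.20 and feeder markers of -1.16, and the part of these cell populations in the result was not tested. Without clone D9 the difference was 0.50 (edgeR adjusted p = 0.0411, beside 0.514% of genes). The call was lost without the shallow DelPID libraries, without C11 and D9, in a fit of the 6 groups alone, and in 7 of 12 fits without 1 library. With the replicate block 4 members were called, beside 12.6% of genes: Mtf2 at 0.45 (edgeR adjusted p = 0.000168), Suz12 at 0.26 (0.00143), Phf19 at 0.58 (0.0362) and Eed at 0.25 (0.0435). That block pairs libraries within a line, since the labels do not say which parental replicate was grown beside which mutant clone.

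Suz12 also differed between lines without dTAG-13. Averaged over NPC days 3 and 6, DelPID was above WT by 0.57 (95% interval 0.24 to 0.90, 648 against 453 CPM, edgeR adjusted p = 0.0249, beside 7.56% of genes). The libraries had 747 and 693, then 554 and 597 CPM in DelPID and 433 and 534, then 370 and 474 CPM in WT. Untreated PCGF35 was above WT by 0.32 and not called (edgeR adjusted p = 0.296, beside 3.12% of genes). The allele shares of Suz12 separated these lines. The Dom allele gave 53.8% of its allelic fragments in WT, 68.4% in PCGF35 NPC, 68.6% in PCGF35 ES cells and 35.0% in DelPID. The 190 neighbouring genes on chromosome 11 had 54.9%, 68.3%, 68.1% and 36.7% in the same libraries. In allelic levels, Cast and Dom gave 84.2 and 97.3 CPM in WT, 83.1 and 178 in PCGF35 NPC, and 176 and 94.2 in DelPID, so that in each of the latter lines 1 allele was raised and the other close to WT. Over the 1296 chromosome 11 genes tested, the median log2 difference from WT was 0.27 in PCGF35, with 77% positive, and 0.20 in DelPID, with 68.8% positive, beside 0 and -0.02 over all genes. Ezh1, on the same chromosome, had Dom shares of 73.5% in PCGF35 ES cells, 73.3% in PCGF35 NPC and 40.9% in DelPID. In SPOC ES cells the Dom share of Ezh1 was 64.1% in D9, 55.3% in C11 and 40.9% in H1. Its 307 neighbours there had 55.2%, 48.5% and 37.6%. D9 NPC libraries had 37.9% for Ezh1 and 38.2% for the neighbours, so the libraries labelled D9 also disagreed on Ezh1. The copy number of chromosome 11 was not measured here. The call for Suz12 in DelPID was lost without the shallow libraries (0.49, edgeR adjusted p = 0.121) and in 5 of 8 fits without 1 library.

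Aebp2 had a shift of this kind by clone. Its Dom share was 31.6% in C11, 32.9% in D9 ES cells and 33.5% to 33.6% in G3, where its 69 neighbours on chromosome 6 had 34.5% to 35.6%. In the other lines and clones it was 40.9% to 49.3%, with neighbours at 46.0% to 53.0%. Cast fragments of Aebp2 gave 50.5 to 57.1 CPM in those clones and 31.3 to 49.3 CPM elsewhere. D9 NPC libraries had a share of 46.8%, so Aebp2 is among the genes on which the libraries labelled D9 disagreed. Mtf2 had Dom shares of 55.0% to 60.4% in every line and clone, with no such division.

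**Figure D5:**
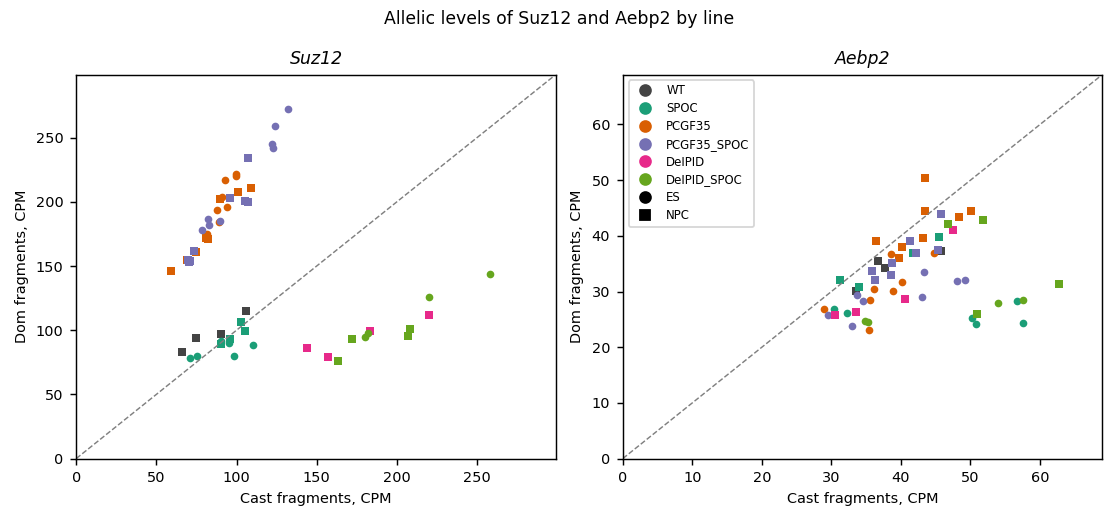
Level of Dom fragments against level of Cast fragments, both in CPM, for Suz12 (left) and Aebp2 (right); each point is 1 library, coloured by line, circles for ES cells and squares for NPC, and the dashed line marks equal levels. For Suz12, PCGF35 libraries lie above the line at mean Dom shares of 68.6% in ES cells and 68.4% in NPC, and DelPID libraries below it at 35.0%.

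Compared with WT in NPC, SPOC had Eed higher by 0.49 (95% interval 0.27 to 0.72, 192 against 142 CPM, edgeR adjusted p = 0.0157, beside 1.75% of genes), the 1 member called there. Phf19 was at 0.74 (edgeR adjusted p = 0.0733) and Mtf2 at 0.40 (0.112). Without D9 the value for Eed was 0.45 and not called (edgeR adjusted p = 0.189), and 6 of 8 fits without 1 library lost it.

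Other genes of the pathway gave context for the differentiation result. Of 6 further PRC2 genes, Rbbp4, a histone-binding subunit, rose by 0.33 (edgeR adjusted p = 4.31e-06), and its X-linked homologue Rbbp7 fell by 0.73 (3.67e-08), as did the inhibitor gene Ezhip, by 1.57. Phf1 (0.01), Epop (-0.22) and Lcor (0.03) were not called. The demethylase genes were both called, Kdm6a, which is X-linked, with a fall of 0.23 (edgeR adjusted p = 0.0113) and Kdm6b with a rise of 0.53 (0.00231). Of 24 PRC1 genes tested, 6 rose and 7 fell, with Bcorl1 (-1.30), Scml2 (-1.26), Ring1 (1.08) and Bcor (1.07) the furthest from 0. Bcorl1, Scml2, Bcor and Ezhip are X-linked, like Rbbp7 and Kdm6a, and Xist was induced in all NPC cultures. In the mean of the 6 arms a response of these genes to differentiation and one to Xist cannot be told apart. Their values in single arms and on ES day 1 are not given here. Of 12 S-phase genes, 1 rose and 7 fell, with Ccne2 (-0.69), Mcm4 (-0.62) and Pcna (-0.58) the furthest. Ezh2 and Eed were not called while these replication genes were lower. Rbbp7 was also called in the comparison of the SPOC mutation with its parent, at 0.81 (237 against 134 CPM, edgeR adjusted p = 0.00077).

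Over the 28 group means, the members' patterns were only loosely alike. The highest correlations of log2 CPM between members were 0.65 for Ezh1 and Mtf2, 0.59 for Ezh1 and Suz12 and 0.53 for Suz12 and Mtf2, and the lowest were -0.65 for Ezh1 and Aebp2 and -0.51 for Jarid2 and Mtf2. Among 10995 genes with at least 5 CPM, the gene most like each member was Klhl13 for Mtf2 (0.97), Tsc1 for Ezh1 (0.93), Oas1d for Suz12 (0.93), Itga9 for Jarid2 (0.91), Cyp2b23 for Eed (0.84), Nap1l2 for Phf19 (0.79), Zfand6 for Ezh2 (0.78) and Snrnp40 for Aebp2 (0.76). Klhl13 and Nap1l2 lie on the X chromosome, and Xist was induced in all cultures except those of ES day 0. These correlations are descriptions over groups that share lines and clones.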

How the data were processed

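ChrRNA-seq libraries of 58 cultures were compared. As the labels and the study describe it, the authors filtered out ribosomal reads with Bowtie2 2.3.2, aligned the rest to N-masked mm10 with STAR 2.4.2a, assigned fragments to alleles with SNPsplit and counted fragments over whole gene spans, introns included, with featureCounts using strand. The deposited count tables hold raw counts per gene, in total and for Cast and Dom, without normalization or pooling of replicates. Total counts were tested with edgeR 4.0.16 in R 4.3.3 (filterByExpr, TMM, quasi-likelihood F-test, 1 mean for each of 28 groups over 58 libraries, 30 residual degrees of freedom), with Benjamini-Hochberg adjustment over 16227 genes at 0.05. The script was tested on simulated data. Depth was 2.29 M to 30 M fragments (M, mega). The biological coefficient of variation was 23.2%, and counting error matters most for Phf19, with 28 fragments in its lowest library.

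The 8 members and the gene lists were chosen with earlier results of these data known. Every member is named. From the lists, all further PRC2 genes and demethylases and the 4 PRC1 and 4 S-phase genes with the largest called changes were to be named; the fourth place of the S-phase list is a tie within rounding and is left out. Comparisons with WT, between ES day 0 and ES day 1 or NPC day 3, between the dTAG-13 responses of both lines and among the 6 arms were added after the data were seen. So were fits on allele-assigned fragments, without clone D9, without clones C11 and D9, and over 5 arms without SPOC. Alternatives were DESeq2 1.42.0 size factors and Wald test, no count filter, the contrast groups alone, the shallow DelPID libraries left out, each library left out and a replicate block.

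Clones pair libraries of PCGF35_SPOC, DelPID_SPOC and SPOC because a clone is 1 cell line, and the replicate number pairs treated and untreated PCGF35 cultures of a time, which were grown in parallel according to the study. The replicate block also paired numbers of PCGF35, WT and DelPID across days, whereas the block within day did not do so for PCGF35. Deviations from group means correlated between paired libraries by 0.252 to 0.729 in DelPID_SPOC, 0.214 to 0.821 in PCGF35_SPOC and 0.159 to 0.622 for PCGF35 treatment pairs. Over all pairs of PCGF35 groups, different days included, deviations of the same number correlated by -0.023 to 0.63. In SPOC they correlated by -0.039 to 0.486, and between ES cells and NPC by -0.039 to 0.039 for D9 and -0.031 to 0.007 for H1. The study describes WT and DelPID NPC replicates as repeat experiments run beside SPOC-mutant clones, but the labels do not tie a replicate to a clone, so parents were not paired with mutants. No 2 libraries of a group agreed within sampling noise (lowest chi-square over degrees of freedom 10.8, 32 pairs). Promoters are from RefSeq tables of GRCm38.p6, where all 8 members matched.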

Additional observations from a re-analysis of the deposited data

Results flagged for a closer look

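Eed and Phf19 moved in opposite directions between some arms from ES day 0 to NPC day 6. In the arms named next, every NPC library lay on the same side of all ES libraries of its arm. The libraries overlapped in 2 of 6 arms for Eed and in 3 of 6 for Phf19. The share of all genes with such arms of either sign is not given here. For Eed the log2 fold change was -0.39 in untreated PCGF35 and -0.39 in PCGF35 with dTAG-13, but 0.50 in SPOC and 0.18 in DelPID_SPOC. For Phf19 it was -0.56 in untreated PCGF35, 1.34 in SPOC and 0.14 in DelPID_SPOC. The difference among all 6 arms was tested and was not called, with edgeR adjusted p-values of 0.0515 for Eed and 0.0585 for Phf19. Of the pairs of arms, those set by dTAG-13 and by the SPOC mutation in the degron line were tested, and 0% of genes were called (Eed 0.48 and Phf19 1.02 for the SPOC mutation, each with an edgeR adjusted p of 0.755). Other pairs, such as PCGF35 and SPOC, were not tested singly. With the replicate block the difference among the arms was called for both (edgeR adjusted p = 0.00758 for Eed and 0.0194 for Phf19, with 25.4% of genes). Without the libraries labelled clone D9 these p-values were 0.234 and 0.35. Groups of 2 or 3 libraries were too small to look for single outlying libraries.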

How the results depend on the processing

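Counts of called members are given first as reported, then under the alternative. The replicate block gave 2 and 4 for NPC day 6 against ES day 0 in untreated PCGF35, 1 and 2 in PCGF35 with dTAG-13, 0 and 3 in untreated PCGF35_SPOC, 2 and 5 in SPOC, 0 and 2 in DelPID_SPOC (4 with the replicate block within day), 1 and 3 for NPC day 6 against day 3 and 1 and 4 for the SPOC mutation, and within day 0 and 1 over the 8 single dTAG-13 comparisons; it took the difference among the 6 arms from 0 to 4 (25.4% of genes). No other count moved by over 1.5 times with the block. Leaving out clone D9 gave 1 in untreated PCGF35, 0 in SPOC, 2 for NPC day 6 against ES day 1 and 0 for NPC day 6 against day 3. Leaving out C11 and D9 gave 1, 0, 0 for day 6 against day 3 and 0 for the SPOC mutation. The contrast groups alone gave 4 in SPOC and 0 for the SPOC mutation, where the DESeq2 Wald test gave 2. Without the shallow DelPID libraries both the SPOC mutation and NPC day 6 against day 3 gave 0, as did the latter with no filter on low counts. Allele-assigned fragments gave 2 there, and turned Jarid2 from 0.05 to -0.41. The cause was not tested. Leaving out 1 library gave 2 to 4 members for the mean of 6 arms (4 reported), 1 to 2 in untreated PCGF35, 0 to 1 in PCGF35 with dTAG-13, 0 to 1 in PCGF35_SPOC with dTAG-13, 1 to 2 in SPOC, 2 to 5 against ES day 1, 0 to 2 against NPC day 3, 0 to 2 for the SPOC mutation, 0 to 2 for DelPID and 0 to 1 for SPOC against WT. Mtf2 was called in all 25 such fits of the mean of 6 arms (-0.62 to -0.50) and Suz12 not in 6 (-0.22 to -0.20); without C11 and D9 Suz12 was not called either. Suz12 in untreated PCGF35 was lost in 4 of 4 such fits and Mtf2 in PCGF35 with dTAG-13 in 3 of 4. Eed in SPOC was lost without clone H1 on NPC day 6 (0.44, edgeR adjusted p = 0.0722). The spread of Jarid2 left an interval of -0.60 to 1.1 for its dTAG-13 response in PCGF35, so effects inside it were not detectable.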
